A study of Mus musculus with 20 samples.

Results

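The mitochondrially encoded transcripts were the 37 rows of the deposited expression table whose symbol begins with mt- and whose chromosome is the mitochondrial one, out of 26440 genes. They comprised 13 mRNAs, 2 rRNAs and 22 tRNAs, which are all the genes that GENCODE M21 places on the mitochondrial chromosome of GRCm38 (mm10), and each was matched to it by gene identifier. The study compared mouse hearts (strain C57BL/6N) in which Creld1, a gene for a membrane protein needed for heart valve development, was deleted in the myocardium (labelled MyHC-Creld1 KO) with wild-type hearts. Whole embryonic hearts came from 4 knockout and 4 wild-type embryos of 3 litters at E13.5. From 3 knockout and 3 wild-type pups of 3 litters, aged 3 days (P3), the atria and the ventricles of each pup gave 1 library each. The labels name the driver of the deletion only as MyHC and the deletion as one of the myocardium, so that heart cells of other kinds keep the gene. Knockout and wild-type libraries with the same number came from 1 litter and 1 preparation date. E13.5 pairs 2 and 3 came from the same litter. E13.5 pairs 1 to 3 were prepared in 2016, and E13.5 pair 4 and all P3 libraries in 2018.

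The mitochondrial chromosome is a compact circle that encodes subunits of the respiratory chain and the ATP synthase, together with the ribosomal and transfer RNAs that translate them inside the organelle. Both strands are copied into long RNAs, and tRNA genes lie between most of the other genes, so that cutting out the tRNAs frees the mRNAs and rRNAs. The heart relies on oxidative metabolism after birth, and its muscle cells are packed with mitochondria.

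The libraries were made by SMART-Seq2, a method that primes cDNA on poly(A) tails and does not mark the strand of a read. A value assigned to a tRNA gene is therefore a read placed in its positions, which can come from a longer RNA of either strand that contains them. The deposited values are a normalized signal on a linear scale and are given below as such. "Per kb" is that signal divided by gene length, the scale on which levels of different genes are compared. A difference is in log2(value + 1), so that 1 is a doubling of a high value. A gene was tested if its value reached 10 in at least 3 libraries, which 18125 genes did, among them 13 of 13 mRNAs, 2 of 2 rRNAs and 17 of 22 tRNAs. A gene was called where limma gave a Benjamini-Hochberg adjusted p under 0.05 over all genes tested.

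Sequences of 6 tRNA genes are shown because they hold the extremes of the tRNA values: the highest pair of the light strand, and the highest and the lowest pair of the heavy strand. They are written 5′ to 3′ from the GENCODE M21 transcripts, with the anticodon in capitals. The first pair are products of the light strand and the other four of the heavy strand. mt-Ts1, mt-Tl1, mt-Tm and mt-Td were chosen after their values were seen.
mt-Tq: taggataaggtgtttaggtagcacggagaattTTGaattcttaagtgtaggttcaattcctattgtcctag
mt-Ts1: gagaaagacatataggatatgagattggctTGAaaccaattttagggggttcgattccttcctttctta
mt-Tl1: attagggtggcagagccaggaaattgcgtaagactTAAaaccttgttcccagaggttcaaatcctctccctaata
mt-Tm: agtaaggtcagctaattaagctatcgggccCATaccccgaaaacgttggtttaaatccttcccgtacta
mt-Td: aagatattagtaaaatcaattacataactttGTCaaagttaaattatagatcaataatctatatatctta
mt-Ts2: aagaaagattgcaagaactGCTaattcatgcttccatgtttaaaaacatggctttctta

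mt-Tq, the glutamine tRNA, had the highest mean of the 22 tRNA genes over the 20 libraries (6082), and mt-Ts1, 1 of the serine tRNAs, followed at 5967. The third in rank was mt-Tl1, a leucine tRNA (521), far below the first pair. mt-Ts2, the other serine tRNA, was lowest (1.70) and was listed at 0 in 7 of 20 libraries. Its values were 2.28, 3.46, 0.849 and 0 in wild-type against 1.26, 8.87, 0 and 1.42 in knockout E13.5 hearts. In P3 atria they were 2.84, 0 and 0 against 0.562, 1.99 and 0, and in P3 ventricles 1.88, 1.49 and 0 against 5.80, 1.21 and 0. These are values of a few reads, and both genotypes hold libraries at 0. The 8 tRNAs copied from the light strand had a median of 191 and all 8 passed the filter, whereas the 14 from the heavy strand had a median of 9.15 and 9 passed. The 5 that did not pass were mt-Tv, mt-Td, mt-Th, mt-Ts2 and mt-Tl2, all heavy-strand products. In the 20 libraries the light-strand genes held between 83.7% and 94.6% of the tRNA signal. Since reads carry no strand here, the light-strand tRNA genes lie opposite heavy-strand RNA, and reads of the 2 strands cannot be told apart.

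Among the mRNAs, mt-Cytb, which encodes the cytochrome b subunit of complex III (chrM:14145-15288), was highest on the signal scale (998981 over 20 libraries) and per kb (873235). mt-Atp6, a subunit of the ATP synthase (chrM:7927-8607), followed at 623450 per kb. mt-Nd3, a subunit of complex I (chrM:9459-9806), was lowest on both scales, at 4763 and 13686 per kb. mt-Nd6, the only mRNA copied from the light strand and also a complex I subunit (chrM:13552-14070), stood at 88740 per kb. Of the rRNAs, mt-Rnr2 of the large mitochondrial ribosomal subunit (chrM:1094-2675) had 167712 per kb and mt-Rnr1 of the small one (chrM:70-1024) 60816 per kb. The plot of levels in gene order shows that adjacent genes on 1 strand differed by orders of magnitude, with most tRNA genes far below the mRNAs they lie between.

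**Figure D1:**
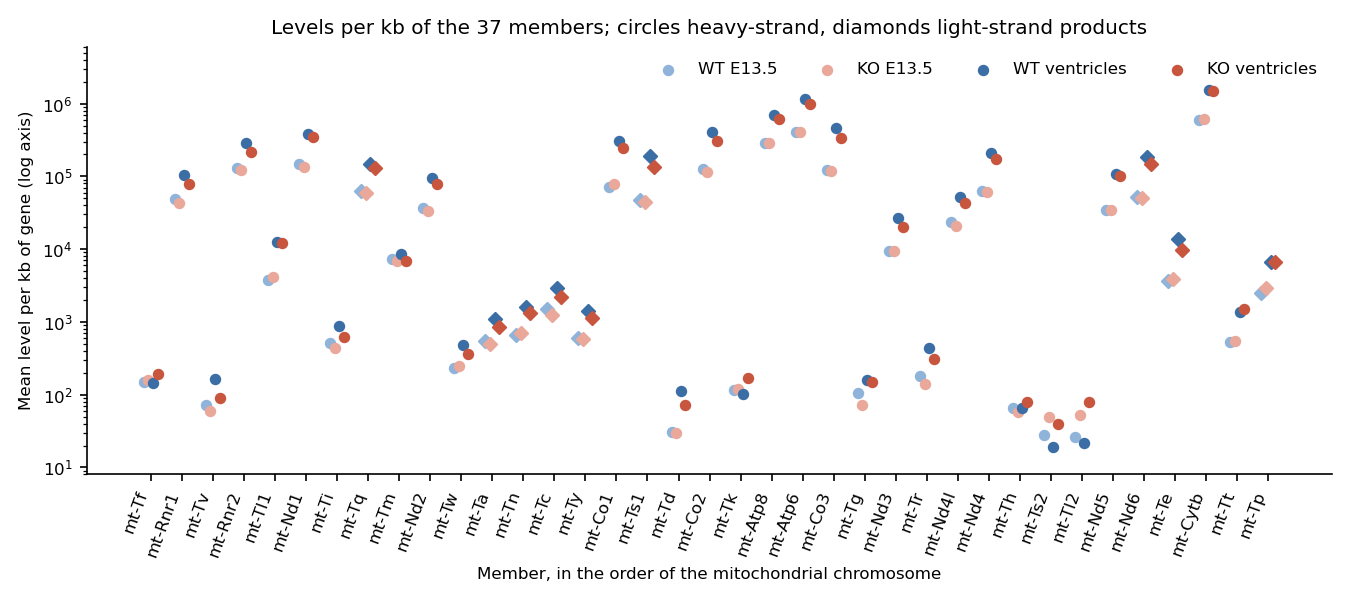
Mean level per kb of gene (log axis) of the 37 members in the order of the mitochondrial chromosome, for E13.5 hearts and P3 ventricles of each genotype. Circles are heavy-strand and diamonds light-strand products, and mt-Cytb stands highest while the lowest points are heavy-strand tRNA genes.

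Some neighbours share bases, which bears on how reads are assigned to them. mt-Nd4l, another complex I subunit (chrM:9877-10173), ends inside the start of mt-Nd4, and mt-Atp8 ends inside mt-Atp6. The junctions have the shared bases in capitals (7 and 43 bases), with 30 bases on each side, read on the plus strand. The first spans chrM:10137-10203 and the second chrM:7897-7999 in GRCm38.
mt-Nd4l to mt-Nd4: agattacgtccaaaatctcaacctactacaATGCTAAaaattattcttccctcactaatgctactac
mt-Atp8 to mt-Atp6: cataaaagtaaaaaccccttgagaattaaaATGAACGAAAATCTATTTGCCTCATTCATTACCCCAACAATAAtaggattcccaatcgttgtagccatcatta

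A second kind of sharing reached outside the mitochondrial chromosome. On chromosome 1, minus strand, between positions 24611535 and 24616197, lies a row of nuclear gene models that repeat mitochondrial genes. Gm10925 is identical to mt-Atp6 over 678 bases, Gm28437 to mt-Co3 over 783 and Gm28661 to mt-Co2 over 681. Gm29216 matches positions 1063 to 1545 of mt-Co1 with 1 substitution in 483 aligned bases, and 9 further bases of the gene model lie outside the alignment. Models identical to parts of mt-Nd3, mt-Nd4 and mt-Nd4l (Gm28438, Gm28439 and Gm10222) are annotated there too and were not analysed here. The stretch of mt-Co1 at chrM:6381-6433 and that of Gm29216 at chr1:24616145-24616197 (minus strand) are shown because they hold the substitution, A1066T counted from 1 at the first base of mt-Co1, in capitals. The first 9 bases of each stretch lie outside the alignment, and their differences are not marked.
mt-Co1: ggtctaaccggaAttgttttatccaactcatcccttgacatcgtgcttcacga
Gm29216: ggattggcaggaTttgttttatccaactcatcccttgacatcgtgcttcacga

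The copies drew unequal parts of the signal. Gm29216 took 34.9% to 56.2% of the summed signal of itself and mt-Co1, and Gm10925 took 9.32% to 38.6% of that of itself and mt-Atp6. Gm28437 took 1.2% to 20.3% against mt-Co3. Some of these ends were libraries of the third atrial pair, and in the 18 other libraries the lowest share was 40.3% for Gm29216 and 18.3% for Gm10925, and the highest for Gm28437 was 11.7%. Gm28661 was listed at 0 in 14 of 20 libraries and reached 912 in wild-type atria 3, where mt-Co2 was at 22211. A read from the shared bases fits both places, so the levels of mt-Co1, mt-Co2, mt-Co3 and mt-Atp6 are uncertain by the amount assigned to the copies. Adding each of these copies to its member left the counts of called members in every comparison as they were. The models not analysed here match 98.3% of mt-Nd3, 63.6% of mt-Nd4 and 99.0% of mt-Nd4l. How their shared reads were assigned is not known, so the levels of these genes are uncertain too.

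The estimated depth was 5138352 to 20669361 reads per library. Creld1 was lower in the knockout library of 8 of 10 pairs and higher in the libraries labelled knockout E13.5 1 and knockout atria 2, and knockout ventricles 2 (59.3) was close to its pair (59.7). Its ranges were 4.64 to 70.9 in knockout and 34.0 to 92.2 in wild-type E13.5 hearts, 23.1 to 82.4 and 21.6 to 146 in atria, and 19.9 to 59.3 and 59.7 to 130 in ventricles. All genotypes below are those of the labels. Markers placed the tissues as labelled: 5 atrial genes summed to 76170 to 444229 in atria against 1723 to 33043 in ventricles, and 5 ventricular genes to 76017 to 87288 in ventricles against 2575 to 18392 in atria, the highest atrial sum being that of wild-type atria 2 and Irx4 being at 0 in 5 of the 6 atrial libraries. These are bulk tissues, in which fewer cells of a type and less RNA per cell cannot be told apart. Nothing in the labels says that RNA was pooled, so each library stands for a single animal. The p-values of the fit over the 6 groups rest on 1 spread per gene, pooled over all groups. They do not rest on the groups compared alone. The third atrial pair, described next, thus enters the errors given for E13.5 hearts and for ventricles. Atria and ventricles of a pup enter that fit as separate libraries.

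The third atrial pair stood apart before any comparison was made. The members made up 10.4% of the signal in wild-type atria 3 and 3.55% in knockout atria 3, against 31.3% and 31.3% in the other wild-type atria and 22.6% and 24.2% in the other knockout atria. The ventricles of the same pups were not low, at 38.5% and 36.3%. All 13 mRNAs, 2 rRNAs and 22 tRNAs were lower in replicate 3 than in the mean of replicates 1 and 2 of their genotype, on the log2(value + 1) scale. The median difference of the mRNAs was -2.68 in wild-type and -2.82 in knockout atria, while over all 18125 genes tested it was 0.26 and 0.21.

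The low values of that pair were not in proportion. mt-Co1, a subunit of complex IV, was at 101810 in wild-type atria 3, which is 38.1% of the mean of the other wild-type atria, and mt-Co3, another, was at 30.5% of theirs. mt-Cytb was at 137697 there, or 12%, and mt-Atp8, the short ATP synthase subunit, at 7.72%. mt-Co1, mt-Co3 and mt-Atp8 were named after their values were seen. mt-Tq was at 125 in wild-type and 178 in knockout atria 3, which is 1.51% and 3.48% of the other atria. In knockout atria 3 mt-Cytb was at 45846 (5.71%) and mt-Atp8 at 2136 (3.03%).

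Other transcripts moved with this pair. The 5 macrophage markers summed to 826 and 878 in the third pair and to 152 to 240 in the other atria, where Adgre1 was at 0 in wild-type atria 1. The 4 nuclear retained RNAs summed to 70246 and 72665 against 101696 to 177113, but the sum was mostly Malat1 and its members went both ways. Malat1 was at 67333 in wild-type and 66247 in knockout atria 3 (96884 to 172652 in the other atria) and Kcnq1ot1 at 1764 and 1210 (3273 to 3760), while Meg3 was higher, at 2624 and 2344 (at most 1127). The 6 markers of working cardiomyocytes summed to 107261 in wild-type and 172013 in knockout atria 3 against 176044 to 189636, and they went both ways too. Myh6 was at 34508 and 47749 against 70961 to 73959, whereas Tnnt2, Tnni3 and Actc1 were lower than in the other atria in wild-type atria 3 (18169, 10040 and 23933) and higher than in them in knockout atria 3 (31551, 18354 and 54017). The 6 erythroid genes reached 133066 in knockout atria 3, while wild-type atria 3 (18798) lay inside the 15580 to 41632 of the other atria. The 25 nuclear genes for mitochondrial RNA processing and stability summed to 5227 and 5537 against 7228 to 8279. Those for mitochondrial DNA maintenance (12) and transcription (9) were lower too, at 2101 and 2234 against 2606 to 3304, and at 661 and 802 against 927 to 1617. The 5 atrial genes were higher, at 165003 and 444229 against 76170 to 154938. So were the 5 genes of smooth muscle and pericytes, at 5866 and 10630 against 1589 to 5593. The part of these in the low mitochondrial values was not tested. Comparisons below that rest on atria are given with and without the pair.

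**Figure D2:**
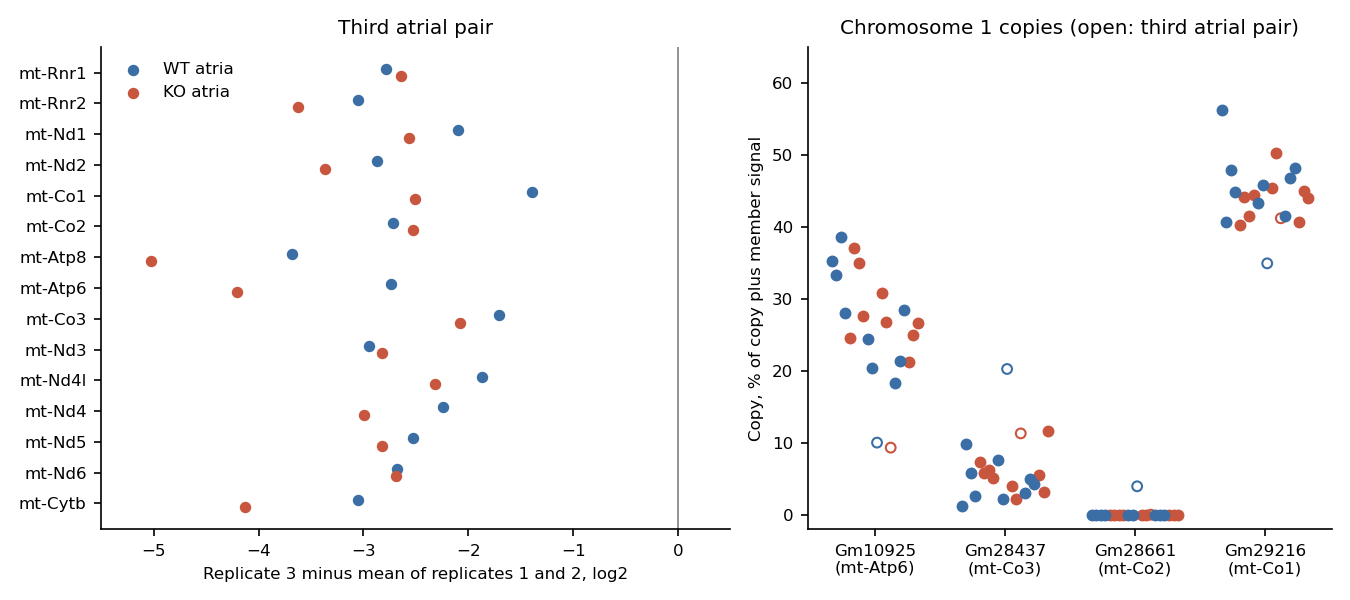
Left, difference between replicate 3 and the mean of replicates 1 and 2 of the same genotype in atria (log2) for the mRNAs and rRNAs, where all points lie below 0. Right, signal of each chromosome 1 copy as a percentage of copy plus member in 20 libraries, the third atrial pair drawn open (blue wild-type, red knockout), with Gm10925 reaching down to 9.32% there.

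Comparing knockout with wild-type hearts asked whether loss of Creld1 in the myocardium went with another level of mitochondrially encoded RNA. At E13.5 the share of all signal was 20.4%, 22%, 21.5% and 21% in wild-type libraries 1 to 4 and 21.2%, 20.8%, 19.5% and 22.4% in the knockout libraries, and the groups overlapped. The knockout was lower in 2 of 4 pairs, namely pairs 2 and 3, which came from the same litter. The 95% Wilson intervals of these shares were at most 0.0401 points wide on each side, and they cover counting error only.

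mt-Cytb read 604465, 721835, 771607 and 669975 in the wild-type and 700860, 666785, 657822 and 749614 in the knockout E13.5 hearts, an overlapping spread with a difference of 0.01 ± 0.81 (SE). mt-Rnr2 read 208016, 230833, 200681 and 184309 against 169019, 232037, 172647 and 212284. Its difference was -0.08 ± 0.70. mt-Rnr1 read 58422, 45509, 41547 and 41096 against 40102, 47071, 36339 and 42065 (-0.16 ± 0.55). The rRNAs of both genotypes thus overlapped too.

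mt-Nd4l read 5914, 8075, 6795 and 7075 in wild-type against 6589, 5787, 5708 and 6455 in knockout E13.5 hearts (-0.18 ± 0.42). mt-Nd3 read 3384, 3307, 3610 and 2855 against 2506, 4168, 2456 and 3892, and mt-Nd6 24929, 27821, 32466 and 24532 against 22051, 28395, 23061 and 31074. mt-Tq read 5969, 3331, 4040 and 4475 against 3955, 4961, 3031 and 4812. In each of these the knockout values lay among or around those of the wild-type. None of the 32 members tested was called at E13.5 in either direction (adjusted p = 1 by limma for all of them), as was none of all genes (0% called higher and 0% lower), and none passed an unadjusted p of 0.05, which 2.39% of all genes did higher and 1.73% lower. The groups overlapped for all 32 members, while 1.3% of all genes lay wholly higher in the knockout and 1.25% wholly lower. The mRNA differences ran from -0.18 for mt-Nd4l to 0.18 for mt-Co1, with a median of -0.06 and 10 of 13 below 0, beside a median of 0.01 over all genes. The 17 tRNAs tested had a median of -0.02 with 10 below 0.

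In P3 atria every mitochondrial mRNA was lower in the knockout than in the wild-type library of each pair. The shares were 31.3%, 31.3% and 10.4% in wild-type against 22.6%, 24.2% and 3.55% in knockout atria 1 to 3, a difference of -8.64, -7.18 and -6.84 points by pair. All 13 mRNAs were below 0 in pair 1 (median -0.65), in pair 2 (-0.48) and in pair 3 (-1.15), as were both rRNAs in each. The third pair lay so far below the others that the groups overlapped for all 32 members, while 3.92% of all genes lay wholly higher and 3.99% wholly lower in the knockout.

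mt-Rnr2 read 388528, 408944 and 47936 in wild-type against 213282, 243642 and 18442 in knockout atria. Each knockout value was below that of its pair, by 0.87, 0.75 and 1.38 on the log2 scale. The difference of the means was -1.0 ± 0.80 (SE, adjusted p = 1 by limma). mt-Nd4l read 12259, 11970 and 3306 against 6223, 7873 and 1402, with a difference of -0.94 ± 0.49 (adjusted p = 0.963). mt-Rnr1 read 82361, 75738 and 11458 against 47861, 53131 and 8091, and its difference was -0.60 ± 0.64.

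The highest and the lowest mRNA showed the same order within pairs. mt-Cytb read 1239214, 1057038 and 137697 in wild-type against 787263, 819868 and 45846 in knockout atria (-0.87 ± 0.94). mt-Nd3 read 4254, 6564 and 686 against 3140, 4620 and 538 (-0.43 ± 0.66). mt-Nd6 of the light strand read 46235, 56637 and 7987 against 34332, 43981 and 6031 (-0.40 ± 0.63). For mt-Tq the order turned in the third pair, with 7524, 9089 and 125 in wild-type against 3935, 6301 and 178 in knockout atria.

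No member was called in atria by limma without a term for the pairs, where 0.0221% of all genes were called higher and 0.00552% lower, and none passed an unadjusted p of 0.05 (2.95% of all genes did higher and 2.37% lower). The median mRNA difference was -0.78, beside 0 for all genes. With the replicate number as a block, 2 of 32 members were called lower, while 0.0552% of all genes were: mt-Rnr2 (-1.0 ± 0.15, adjusted p = 0.0178) and mt-Nd4l (-0.94 ± 0.16, adjusted p = 0.0425), both lower in 3 of 3 pairs. Without the third pair neither was called under the block (adjusted p = 0.0625 and 0.223 by limma), where 0.0221% of all genes were called in each direction. This fit was chosen after seeing the data. mt-Nd4l shares sequence with a chromosome 1 gene model that was not analysed here.

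Without the third pair and without a block the median mRNA difference was -0.54, that of the rRNAs -0.73 and that of the tRNAs -0.40, and no member was called (0.0221% of all genes higher and 0.0386% lower). mt-Rnr2 was then at -0.81, mt-Nd4l at -0.79 and mt-Cytb at -0.51. Of the 32 members, 16 were lower at an unadjusted p of 0.05 (3.77% of all genes) and none higher (4.12%). With 2 libraries in each group, 22 members lay wholly lower in the knockout (18.5% of all genes) and none wholly higher (18.9%). Leaving out knockout atria 3 alone, which keeps its low wild-type partner, turned the median to 0.30, and leaving out wild-type atria 3 alone gave -1.53. Of the 17 tRNAs tested 15 were below 0, with a median of -0.42.

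Markers of several cell types, heart muscle among them, also differed in level between the genotypes in atria. The 6 erythroid genes summed to 15904, 15580 and 18798 in wild-type and to 31044, 41632 and 133066 in knockout atria, without overlap, and all 6 were above 0 (median difference 1.85), although none was called. The 6 fibroblast genes summed to 84611, 80862 and 78239 against 61437, 60665 and 57995, also without overlap, with a median of -0.64 and 1 of 6 called lower. The 5 endothelial genes summed to 3129, 3188 and 3155 against 2437, 2434 and 2999, again without overlap. Their members went both ways, with 3 of 5 above 0 (median 0.14, none called). The 5 genes of smooth muscle and pericytes summed to 1589, 3378 and 5866 against 5270, 5593 and 10630, higher in the knockout of each pair (median 0.57, none called, Myh11 at 0 in knockout atria 2). The 5 ventricular genes summed to 3491, 18392 and 2617 against 4373, 2575 and 4293, with a median of -1.39 and none called. The 5 atrial genes summed to 111170, 76170 and 165003 against 154938, 150102 and 444229 (4 of 5 above 0, median 0.50, none called). The 6 genes of working cardiomyocytes summed to 177148, 176044 and 107261 against 189636, 184057 and 172013 (5 of 6 above 0, median 0.16, none called). Both sums were higher in the knockout of each pair. The part of these cells in the atrial difference was not tested.

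**Figure D3:**
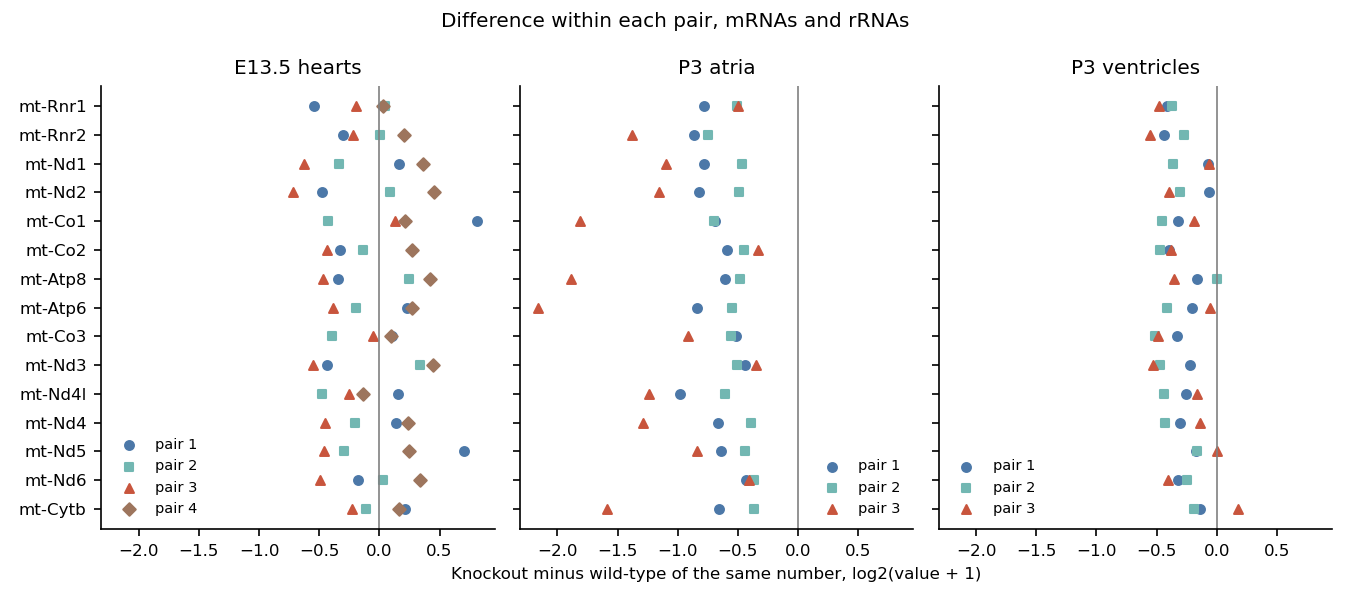
Knockout minus wild-type difference within each numbered pair (log2 of value + 1) for the 2 rRNAs and 13 mRNAs in E13.5 hearts, P3 atria and P3 ventricles, with 1 symbol per pair. All points lie left of 0 in atria, they scatter around 0 at E13.5, and in ventricles 13, 12 and 12 of 13 mRNAs lie left of 0 in pairs 1 to 3.

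In P3 ventricles the shares were 39.9%, 41.3% and 38.5% in wild-type against 36.5%, 37.3% and 36.3% in knockout hearts, so that the groups did not overlap. The knockout was lower by 3.45, 4.00 and 2.16 points. This is a sum over the members and was given no test. mt-Rnr2 read 420504, 481857 and 454438 in wild-type against 310595, 399731 and 308680 in knockout ventricles, with each knockout value below all wild-type values and a difference of -0.42 ± 0.80 (adjusted p = 1 by limma). mt-Nd4l read 14159, 17453 and 15311 against 11853, 12898 and 13664, which also do not overlap (-0.29 ± 0.49). mt-Cytb read 1867449, 1791852 and 1608787 against 1694721, 1570894 and 1816031, which overlap (-0.05 ± 0.94).

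mt-Rnr1, mt-Nd3, mt-Nd6 and mt-Tq were lower in each knockout ventricle library than in its pair. mt-Rnr1 read 83079, 115058 and 105505 against 62504, 89119 and 75524 (-0.42 ± 0.64). mt-Nd3 read 6947, 10465 and 10866 against 5943, 7540 and 7515, and mt-Nd6 80861, 99829 and 103912 against 64699, 84027 and 78265. mt-Tq read 8044, 13774 and 10195 against 6662, 13375 and 7855. All of these overlapped between the groups.

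None of the 32 members was called in ventricles (adjusted p = 1 by limma for all), nor was any gene (0% higher and 0% lower), and none passed an unadjusted p of 0.05, which 1.99% of all genes did higher and 1.91% lower. This fit shares 1 spread over all groups, so the spread of the third atrial pair enters these tests. Without that pair no member was called in ventricles either, where 0.00552% of all genes were called higher and 0% lower. Unadjusted p-values without that pair are not given here for ventricles. The absence of members under an unadjusted 0.05 thus holds for the full fit only. The mRNA differences were all below 0, from -0.44 for mt-Co3 to -0.05 for mt-Cytb with a median of -0.29, beside -0.01 over all genes. Knockout libraries lay wholly below wild-type libraries for 7 of 32 members (21.9%), and did so for 5.56% of all genes, with 4.97% wholly higher. These 7 were mt-Rnr2, mt-Nd4l, mt-Co1, mt-Co3, mt-Atp6, mt-Ts1 and mt-Te, the last 5 named after their values were seen. Members come from the same RNA and long precursors, so they are not separate replicates of the comparison. In these ventricles the 5 atrial markers summed to 5225 to 33043 in knockout and 1723 to 7309 in wild-type libraries, with none at 0. Among them Nppa, the gene of atrial natriuretic peptide, was at 971, 645 and 5411 in wild-type against 11104, 2713 and 31208 in knockout ventricles. It made up most of each knockout sum. Only 3 of the 5 atrial markers were above 0 between the genotypes (median difference 0.59, none called). The 6 erythroid genes were all above 0 (median difference 0.57, none called), and the 5 endothelial genes summed to 2126 to 2530 in knockout against 2843 to 3450 in wild-type ventricles, without overlap (median -0.42, none called). The part of these cells in the ventricular values was not tested.

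**Figure D4:**
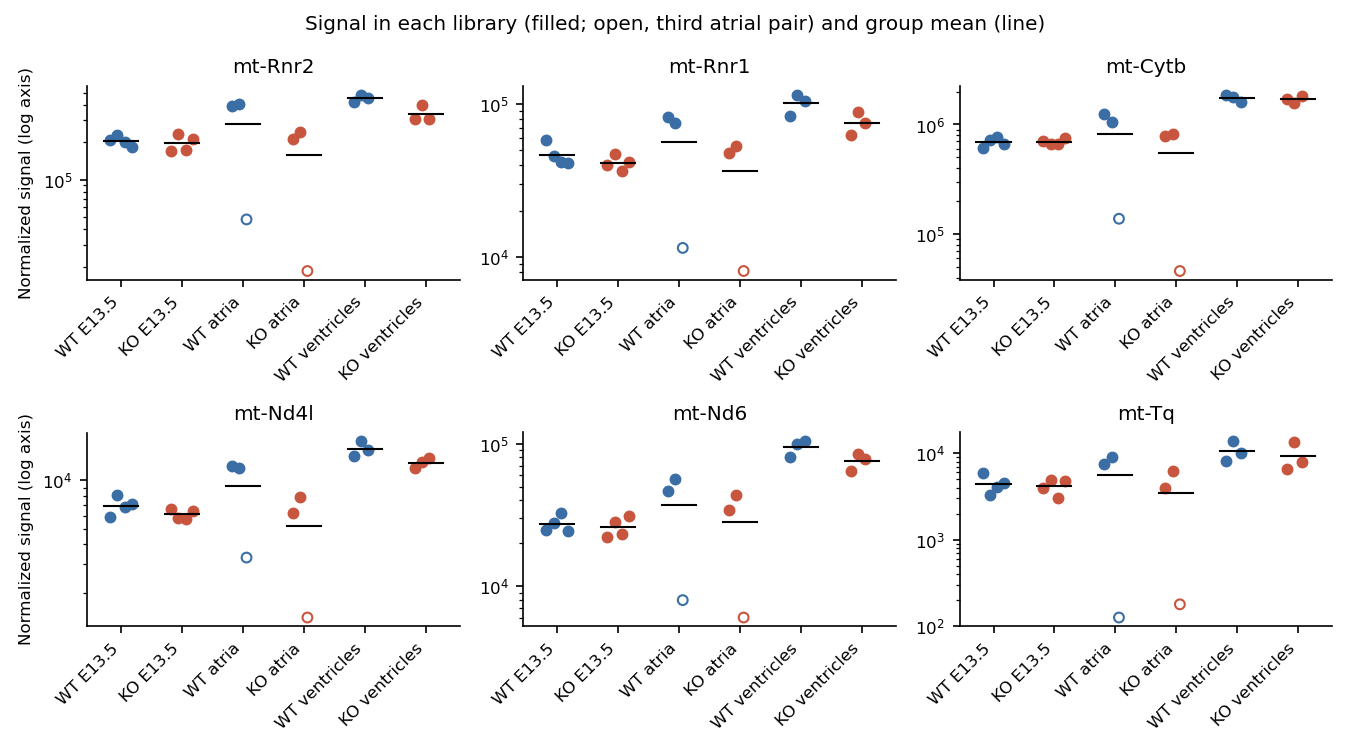
Normalized signal (log axis) of mt-Rnr2, mt-Rnr1, mt-Cytb, mt-Nd4l, mt-Nd6 and mt-Tq in each of the 20 libraries, with a line at each group mean, blue for wild-type and red for knockout. The open symbols are the third atrial pair, below all other libraries in every panel.

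The difference between the knockout effects was tested directly. Over each pup's ventricle minus atrium difference, the knockout effect in ventricles minus that in atria had a median of 0.57 over the mRNAs, with 13 of 13 above 0, and 0 members were called (adjusted p = 1 by limma, 0% of all genes called). It was 0.35 without the third pair, and it turned to -0.59 without knockout pup 3 alone. Against the effect at E13.5, that in ventricles had a median of -0.21 with 13 of 13 below 0 and 0 members called (0% of all genes). At an unadjusted p of 0.05, 0 members passed in either contrast, where 1.48% of all genes did higher and 1.1% lower in the first and 1.8% and 2.22% in the second. Without the third pair 0 members passed in the first contrast, where 3.07% of all genes did higher and 2.73% lower. Stage, dissection and, for 3 of 4 pairs, year of preparation cannot be told apart in the second contrast.

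All 13 mRNAs and both rRNAs were higher in P3 ventricles than in E13.5 hearts of the same genotype, without overlap of the libraries. The members' share was 21.2% ± 0.71 (SD, n = 4) at E13.5 and 39.9% ± 1.41 (n = 3) in P3 ventricles of wild-type hearts, and 21% ± 1.19 and 36.7% ± 0.52 in knockout hearts. The median mRNA difference was 1.52 in wild-type and 1.33 in knockout hearts, beside 0 and -0.02 over all genes. The libraries did not overlap for 22 of 32 members in either genotype, where 10.3% (wild-type) and 8.94% (knockout) of all genes were wholly higher.

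Most markers of heart muscle were higher in P3 ventricles too. The 6 genes of working cardiomyocytes summed to 109907 to 129064 in wild-type E13.5 hearts and 228541 to 271683 in wild-type ventricles. Of these genes 5 of 6 were above 0, with a median difference of 1.44 and 4 of 6 called higher. In knockout hearts they summed to 103506 to 127634 and 223076 to 269090 (6 of 6 above 0, median 1.29, 3 of 6 called higher). The 6 erythroid genes summed to 38453 to 138139 in wild-type E13.5 hearts and 10355 to 25485 in wild-type ventricles. There 1 of 6 was above 0, with a median of -1.36 and 3 of 6 called lower. In knockout hearts none of the 6 was above 0, with a median of -1.20 and none called. None of these 12 markers was at 0 in an E13.5 or ventricle library. Their part in the mitochondrial values was not tested.

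In wild-type hearts 2 of 32 members were called higher in P3 ventricles, beside 3.35% of all genes, and none lower (1.74%). They were mt-Co1, from 74161, 146115, 106806 and 111386 at E13.5 to 495036, 511518 and 414105 (2.15 ± 0.54, adjusted p = 0.0214), and mt-Co3, from 90331, 108338, 89325 and 100711 to 336043, 392670 and 350798 (1.89 ± 0.50, adjusted p = 0.0289). Both encode subunits of complex IV and were named after their values were seen, and both share sequence with a chromosome 1 copy. In knockout hearts 0 members were called (1.79% of all genes higher, 0.954% lower), although 12 passed an unadjusted p of 0.05 as higher (8.03% of all genes). In wild-type hearts 14 did (9.84%).

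These 2 calls changed when single libraries were left out of the full fit, although the E13.5 and ventricle libraries of both genes did not overlap. None was left without wild-type E13.5 1 or 3 or without any 1 of the wild-type ventricle libraries, 1 was left without wild-type E13.5 4, and 3 members were called without wild-type E13.5 2. After quantile normalization the median mRNA difference in wild-type hearts was 0.51 and none was called.

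The fit shares 1 spread among all groups, atria included. The standard error of the mt-Co1 difference was 0.54 with the third atrial pair and 0.16 without it. Without that pair, 21 of 32 members were called higher in wild-type ventricles (5.37% of all genes) and 20 in knockout ventricles (3.81%). They included all 13 mRNAs and both rRNAs in each genotype. In wild-type hearts the mRNA differences were 1.17 to 2.15 with adjusted p up to 0.000415, and in knockout hearts 1.06 to 1.64 with adjusted p up to 0.0034. The rRNAs differed less, by 1.12 and 1.14 in wild-type and by 0.86 and 0.79 in knockout hearts for mt-Rnr1 and mt-Rnr2. With only the libraries prepared in 2018, which leave 1 E13.5 heart per genotype, no member was called, and the median mRNA difference was 1.65 in wild-type and 1.13 in knockout hearts.

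Within the mRNA class each member's proportion of the signal was compared between stages as a description. mt-Cytb made up 41.0% ± 1.2 of the mRNA signal in wild-type E13.5 hearts and 36.0% ± 3.12 in wild-type ventricles, and 41.8% ± 1.74 and 39.6% ± 1.82 in knockout hearts. mt-Co1 made up 6.43% ± 1.26 and 9.70% ± 0.89 in wild-type hearts, against 7.30% ± 0.63 and 8.87% ± 0.86 in the knockout. mt-Nd4l made up 0.41% ± 0.035 and 0.32% ± 0.018 in wild-type hearts, against 0.37% ± 0.025 and 0.30% ± 0.010 in the knockout. The ratio of rRNA to mRNA signal was 0.151 ± 0.023 in wild-type and 0.143 ± 0.020 in knockout E13.5 hearts, against 0.113 ± 0.006 and 0.098 ± 0.017 in ventricles. In the third atrial pair mt-Cytb made up 25.5% of the mRNA signal in wild-type and 22.2% in knockout atria.

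**Figure D5:**
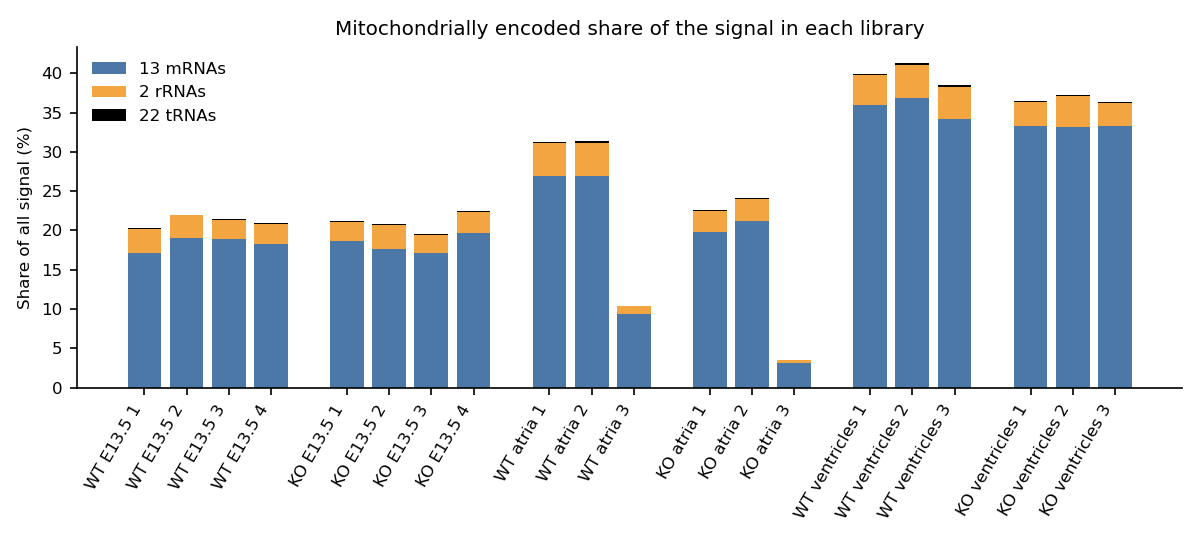
Share of all normalized signal (%) held by the 13 mRNAs, 2 rRNAs and 22 tRNAs in each of the 20 libraries, stacked from 0. The E13.5 libraries lie between 19.5% and 22.4% and the ventricles between 36.3% and 41.3%, while wild-type and knockout atria 3 stand at 10.4% and 3.55%.

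Ventricles were compared with atria within pups. In all 6 pups all 13 mRNAs and both rRNAs were higher in ventricles. The median mRNA difference was 0.59, 0.76 and 3.27 in wild-type pups 1 to 3 and 1.01, 0.87 and 4.02 in knockout pups, so that the third pup of each genotype carried much of the group median of 1.5 and 2.02. Without the third pups the medians were 0.69 and 0.96. No member was called in either genotype with or without them by limma. Of all genes, 0% were called higher and 0.0883% lower in wild-type, and 0.0772% and 0.121% in knockout hearts. At an unadjusted p of 0.05, 4 members were higher in wild-type ventricles (4.24% of all genes) and 6 in knockout ventricles (4.12%). Libraries of the 2 chambers did not overlap for 19 of 32 members in wild-type (7.8% of all genes) and 23 of 32 in knockout hearts (8.08%). Without the third pups 15 members passed the unadjusted p in wild-type (6.28% of all genes) and 20 in knockout hearts (6.49%), and the libraries did not overlap for 24 (20.9%) and 27 of 32 (20.9%), with 2 libraries in each group. The 6 genes of working cardiomyocytes were above 0 in both genotypes (medians 0.63 and 0.45, none called), and their part was not tested.

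The medians of the rRNAs were 0.06 in wild-type pup 1 and 0.42 in wild-type pup 2, and 0.46 and 0.73 in the knockout pups of those numbers. mt-Rnr2 differed by 0.11 and 0.24 in wild-type pups 1 and 2 and by 0.54 and 0.71 in knockout pups 1 and 2. mt-Nd6 differed by 0.81 and 0.82, and by 0.91 and 0.93. In the third pups mt-Rnr2 differed by 3.24 and 4.06, and mt-Tq by 6.34 and 5.45.

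Atria were compared with E13.5 hearts too, and this comparison shares its E13.5 libraries with that of ventricles. The median mRNA difference was 0.02 in wild-type and -0.58 in knockout hearts, with no member called (3.11% and 1.95% of all genes were called higher, 2.39% and 0.855% lower). At an unadjusted p of 0.05, 0 members were lower in wild-type (8.55% of all genes) and 1 in knockout atria (6.14%). Without the third pair these were again 0 (8.94%) and 1 (6.17%), and the medians were 0.81 and 0.32. Then 14 of 32 members were called higher in wild-type atria (3% of all genes), namely 10 mRNAs, both rRNAs and 2 tRNAs, and 1 tRNA, mt-Ts1, in knockout atria (1.62%). mt-Ts1 read 2438 to 3588 in knockout E13.5 hearts and 4790 and 6028 in knockout atria 1 and 2, and it was named after its values were seen. The difference between these 2 counts was not tested.

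The nuclear genes that maintain and express the mitochondrial chromosome were read from lists of mitochondrial DNA maintenance (12 tested), transcription (9) and RNA processing and stability (25). None of the 46 was called in a knockout comparison. Their median difference was -0.01 at E13.5, 0.04 in atria and -0.08 in ventricles, near those of all genes (0.01, 0 and -0.01). The smallest unadjusted p at E13.5 was that of Dhx30, an RNA helicase of mitochondrial ribosome assembly, which read 163 to 332 in knockout and 478 to 811 in wild-type hearts (-1.24 ± 0.29, adjusted p = 0.664 by limma). Mterf4 (1.44 ± 0.47) and Mterf1a (1.93 ± 0.64), both of the mitochondrial transcription factor family, followed. In atria these places were held by Fastkd2 (-0.69 ± 0.33), Ptcd1 (-1.21 ± 0.63), both RNA-binding proteins of mitochondria, and Exog (2.59 ± 1.48), a mitochondrial nuclease. Without the third atrial pair these were at -0.80 ± 0.32, -1.58 ± 0.73 and 3.36 ± 1.82, with none called, and the median over the 46 genes in atria was again 0.04. In ventricles they were held by Tk2, the mitochondrial thymidine kinase (2.78 ± 1.11), Mgme1, a mitochondrial DNA exonuclease (-1.47 ± 0.73), and again Exog (2.91 ± 1.48).

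Across stages 1 of these 46 genes was called in each of 2 comparisons, beside 3.35% of all genes called higher in wild-type ventricles and 0.855% called lower in knockout atria. Lrpprc, which binds and stabilizes mitochondrial mRNAs, was higher in wild-type P3 ventricles, from 731 to 845 at E13.5 to 1282 to 1591 (0.89 ± 0.25, adjusted p = 0.0374). Fastkd2 was lower in knockout atria, from 259 to 323 at E13.5 to 106, 117 and 75.3 in atria 1 to 3 (-1.53 ± 0.30, adjusted p = 0.00603), and stood at -1.34 ± 0.28 without the third atrial pair (adjusted p = 0.0109 by limma). The median over the 46 genes was 0.14 in wild-type and 0.07 in knockout ventricles against E13.5, beside the 1.52 and 1.33 of the mitochondrial mRNAs.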

How the data were processed

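RNA of 20 mouse heart libraries was made into cDNA by SMART-Seq2, per the labels' protocols. Tools listed, per the submitters' processing notes, are STAR 2.5.1, bcl2fastq 2.2 and DESeq2, with build mm10. For the counting tool and annotation, the sources used here give no name. The deposited table holds a normalized signal per gene on a linear scale, made by the authors. The depth came from its low values: in 4 reference gene types 99.7% to 99.8% were whole multiples of 1 read within 0.001 reads, against 45.2% to 64.6% over all genes. Genes reaching 10 in at least 3 libraries (18125 of 26440) were tested on log2(value + 1) with limma 3.58.1 in R 4.3.3, in 1 fit over the 6 groups with a variance trend and Benjamini-Hochberg adjustment. Ventricles minus atria was fitted on within-pup differences. The script was tested on simulated data.

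The replicate numbers mark a shared litter and preparation date per the labels, so they pair the samples. E13.5 pairs 2 and 3, however, came from the same litter. Correlations of paired deviations were 0.212, 0.256 and 0.638 in atria, 0.0401, 0.0200 and 0.0658 in ventricles and -0.0159 to 0.0159 at E13.5. Between different numbers they were 0.225 for wild-type atria 1 with knockout atria 2, and 0.167 for wild-type atria 2 with knockout atria 1. Those of atria 3 with atria 1 or 2 were -0.411 to -0.322. Different numbers gave -0.0617 to 0.0280 in ventricles and -0.031 to 0.0248 at E13.5. The correlations thus did not single out atrial pairs 1 and 2 or the E13.5 pairs, and the pairing rests on the labels. Values in every library are given for mt-Rnr1, mt-Rnr2, mt-Nd4l, mt-Nd6, the highest and lowest member of each class by mean, and any member called between genotypes. Of the nuclear genes of mitochondrial expression, the 3 with the smallest p in each such comparison are named. The members and lists were chosen with earlier results of these data known. Sequences and coordinates are those of GENCODE M21 on GRCm38.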

Additional observations from a re-analysis of the deposited data

Results flagged for a closer look

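Of 24 sets of 4 E13.5 values examined for a library far from the others, 1 held such a library. mt-Ts2, a serine tRNA gene that did not pass the filter on low values, had a signal of 8.867 in knockout E13.5 2, above the 0, 1.26 and 1.42 of the other knockout E13.5 hearts. Chance alone flags about 1 in 20 such sets.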

How the results depend on the processing

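Of 892 values recomputed under 40 other settings, 843 were kept. A member's difference was kept if its direction and side of the threshold held, and a median if it moved by no more than the spread. A count of called members was kept if it was equal or, with both counts above 0, close in ratio, and 335 of 352 were. Apart from members called higher in wild-type ventricles against E13.5, the main counts were 0, and a count that stayed at 0 was kept. The replicate block gave 2 members called lower in atria and changed no other member call; without the third atrial pair it gave 0. Members called higher in wild-type ventricles against E13.5 numbered 4 with a pseudocount of 10, 4 after rescaling to genes off the mitochondrial chromosome, 0 after quantile normalization, 0 with libraries of 2018 only, 0 without wild-type pup 2, 21 without the third atrial pair, and 0 to 3 leaving out each library. Without that pair the count was 20 in knockout ventricles, 14 in wild-type atria and 1 in knockout atria against E13.5. Members called lower in knockout atria against E13.5 numbered 0 to 1 leaving out each library. Between genotypes, leaving out each library gave at E13.5 -0.055 to 0.062 for mt-Cytb, -0.21 to 0.069 for mt-Tq, -0.16 to 0.0090 for mt-Nd6 and -0.18 to 0.069 for mt-Nd3. In atria it gave -1.53 to 0.28 for mt-Rnr1, -2.02 to 0.21 for mt-Rnr2, -1.29 to 0.50 for mt-Nd6, -1.89 to 0.51 for mt-Cytb, -1.41 to 0.51 for mt-Nd3 and -2.33 to 1.28 for mt-Tq, and in ventricles -0.11 to 0.0014 for mt-Cytb. With only the E13.5 pairs of 2016 mt-Cytb was at -0.044. Without wild-type pup 2 the atrial values were 0.12 for mt-Nd6, 0.22 for mt-Nd3 and 0.75 for mt-Tq. That setting leaves wild-type atria 1 and the low wild-type atria 3 against all knockout atria. Apart from the fewer samples, the cause was not tested. For the mRNAs and rRNAs the precision was limited by groups of 3 or 4 and by the spread of the third atrial pair. Neither was set against depth by a test. The 5 tRNAs under the filter were tested only without the filter, and none was then called between genotypes.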
